A study of Homo sapiens with 14 samples.

Results

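The genes described here had a STAT5 interval near their start in DLD-1 cells given a RAC1 activator and no STAT5 interval there in control cells. DLD-1 is an established human colorectal adenocarcinoma line. Genes were taken by Ensembl identifier from lists of chromatin immunoprecipitation sequencing (ChIP-seq) intervals, each assigned to a gene start from 3000 bp upstream to 1000 bp downstream. A gene in the activator STAT5 list and absent from the control STAT5 list was called activator only, and 1636 of the 44178 genes found in any of 4 lists met that rule (3.7%). A further 11007 genes (24.9%) had an interval in both STAT5 lists and 27046 (61.2%) in the control list only, so that a control STAT5 interval was listed at 86.1% of the genes. The rule uses presence in a list and no value, position or other antibody.

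Control cells received an empty vector. Activator cells received pEGFP-C1199Tiam1, a plasmid for a fragment of TIAM1, an exchange factor for RAC1, and vehicle for 16 h. Chromatin was taken 20 h after transfection in every group, and STAT5 was precipitated with the antibody C-17 from 2 control and 2 activator libraries. BCL6 intervals of 2 control libraries and of 3 inhibitor libraries, which got the activator plasmid and, for the same 16 h, the RAC inhibitor EHT 1864 at 20 microM, served as readouts that the rule did not use. Transfection was transient in all groups, so treated dishes may hold untransfected cells, and the labels do not say that libraries of a group came from separate cultures.

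STAT5 is a transcription factor that tyrosine kinases of the JAK family phosphorylate after cytokine or growth factor signals, after which it dimerises and binds the palindrome TTCNNNGAA. BCL6 is a zinc finger repressor whose recognition sequence resembles that of STAT5, so both proteins can occupy the same sites with opposite effects. RAC1 is a small GTPase, PAK1 one of the kinases it activates, and both act on cell shape, growth and survival in the colon epithelium and in colorectal tumours. The study's title names a switch between BCL6 and STAT5 at target genes and the response to DNA damage, and genes with a STAT5 interval listed in activator cells alone bear on the STAT5 side of that switch.

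The 2 STAT5 lists were made with different entry rules, which sets how the counts can be read. Each of the 14047 activator intervals had a value of at least 2 in both libraries, whereas 9.34% of the 68320 control intervals did and the others had a value in 1 library. A gene was therefore activator only if neither control library alone had supplied an interval. Without the first control library the class held 3809 genes and without the second 4782. With control intervals required in both libraries, the activator's own rule, it held 10429 of the 12643 activator genes, or 82.5%, against 12.9% (exact 95% interval 12.4 to 13.5) under the deposited lists. Values are whole numbers read as reads per interval, although the header names no quantity, and most are the lowest that a list admits. Pieces of a peak can repeat its value, so a value may belong to a wider stretch than the interval it is given with. No base of any activator interval lay in a control STAT5 peak, also at genes with both, where 21.7% of interval-gene pairs directly touched one. At ID1, an inhibitor of helix-loop-helix transcription factors in the class with both, an activator interval ended at 30190345 on chromosome 20 and a control peak began at 30190346. Whether control peaks were taken out of the activator list is not stated, so that intervals beside a control peak may be remainders of wider ones, and widths and distances there are those of the deposited intervals. Being activator only means that no control STAT5 interval was assigned to the gene.

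Promoter sequences are given for 4 members at which an activator interval lay beside or across the gene start, because the STAT5 palindrome can be looked for in them. BCL6 was chosen as the partner factor of STAT5, FGA as the one covered promoter with a match, and BAX and AP4E1 as covered promoters among those with the highest values. Each is the 300 bases from 250 before to 50 after a RefSeq start (GRCh38.p14), in the direction of the gene, with TTCNNNGAA in capitals. They lie at chr3:187745419-187745718, minus strand (BCL6), chr4:154590693-154590992, minus strand (FGA), chr19:48954625-48954924, plus strand (BAX) and chr15:50908433-50908732, plus strand (AP4E1).
BCL6: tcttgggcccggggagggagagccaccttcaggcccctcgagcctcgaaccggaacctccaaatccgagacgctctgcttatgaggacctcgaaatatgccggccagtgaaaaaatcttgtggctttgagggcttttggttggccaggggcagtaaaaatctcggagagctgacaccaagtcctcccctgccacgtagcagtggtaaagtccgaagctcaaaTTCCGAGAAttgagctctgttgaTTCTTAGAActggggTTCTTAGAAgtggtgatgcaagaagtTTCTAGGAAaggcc
FGA: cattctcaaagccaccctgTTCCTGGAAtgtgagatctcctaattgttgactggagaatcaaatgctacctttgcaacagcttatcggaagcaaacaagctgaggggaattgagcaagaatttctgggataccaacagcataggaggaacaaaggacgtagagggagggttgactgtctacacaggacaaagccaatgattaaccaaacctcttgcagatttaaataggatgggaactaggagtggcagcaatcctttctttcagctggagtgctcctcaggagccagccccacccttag
BAX: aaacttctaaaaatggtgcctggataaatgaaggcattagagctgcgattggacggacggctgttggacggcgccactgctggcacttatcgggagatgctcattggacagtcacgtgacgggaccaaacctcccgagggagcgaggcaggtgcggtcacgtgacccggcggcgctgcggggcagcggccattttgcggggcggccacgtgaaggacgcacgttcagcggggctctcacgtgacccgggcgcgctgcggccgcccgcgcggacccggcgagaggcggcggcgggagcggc
AP4E1: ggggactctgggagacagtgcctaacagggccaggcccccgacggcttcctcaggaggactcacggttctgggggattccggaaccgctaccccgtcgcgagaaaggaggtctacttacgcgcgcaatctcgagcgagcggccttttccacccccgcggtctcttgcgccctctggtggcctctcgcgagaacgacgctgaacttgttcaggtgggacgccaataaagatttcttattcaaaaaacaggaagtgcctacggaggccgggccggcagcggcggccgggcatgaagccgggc
The BCL6 promoter held 4 matches, starting 28 and 5 bases before and 11 and 37 bases after the start. The FGA promoter held 1, starting 231 bases before it, and the promoters of BAX and AP4E1 held none. The activator intervals were not placed on these sequences by coordinate. They were counted in the same window around the gene starts of the deposited lists, which are of GRCh37 and may differ from the RefSeq starts. In that window they covered 43 bases at BCL6, 254 at FGA, 152 at BAX and 236 at AP4E1. If the starts coincided, the stretch of the BCL6 promoter with the 4 matches would lie outside the interval, which was not measured. A second RefSeq start of BCL6 had no match. The count of 43 was made once, around the deposited start of the gene, and not for either RefSeq start.

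Over all promoters of the RefSeq table, 7.66% held TTCNNNGAA, which is its own reverse complement, so that a match counts for both strands. Among protein-coding genes with a promoter there, the motif was found at 10.9% of activator-only genes (55 of 506, exact 95% interval 8.29 to 13.9), 10.4% of genes with both, 8.63% of genes with control only and 8.98% of all. The interval for activator-only genes includes the other 3 shares. Activator intervals covered at least 150 of the 300 bases around the deposited start at 19 activator-only protein-coding genes, 13 of which had a promoter in the RefSeq table. Of these 13, 1 held the motif, that of FGA, which codes for a chain of fibrinogen. The FGA interval had 3 and 2.

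Of 20 activator-only miRNA genes, 2 had an interval with at least 3 in both libraries. MIR28 had one of 3 and 4 from 303 to 47 bp upstream of its start, and MIR1180 one of 4 and 3 from 2379 to 2091 bp upstream. The mature sequences present in the RefSeq table are given with the seed, bases 2 to 8, in capitals, since the seed sets which transcripts a miRNA pairs with.
hsa-miR-28-3p: cACUAGAUugugagcuccugga
hsa-miR-1180-3p: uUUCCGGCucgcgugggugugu
hsa-miR-1180-5p: gGACCCACccggccgggaaua
The 3 seeds differ. Both genes also had a control BCL6 interval in their window, and neither had an inhibitor BCL6 interval.

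BCL6 itself was an activator-only gene. On chromosome 3, on GRCh37, one activator interval ran from 187463723 to 187464050, which is 535 to 208 bp upstream of the start, with 5 in both libraries. Another ran from 187462614 to 187462685, 830 to 901 bp downstream, with 2 and 3. The nearest control STAT5 peak was 6125 bp from the second interval and 7234 bp from the first. The control BCL6 list had peaks at the gene of 0 and 3 at 187463039 to 187463365 and of 0 and 2 at 187465819 to 187466097. No activator interval overlapped those, and the nearest distances were 357 and 253 bp. Of the 616 activator-only protein-coding genes, 3 had an interval of at least 50 bp with 5 or more in both libraries, and BCL6 was one, with NLRX1 and CFAP53.

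The other recognised targets of STAT5 or BCL6 that were listed fell outside the class. Of 40 target genes listed, BCL6 among them, 1 was activator only, which was BCL6 itself. Of the others, 10 had both, 21 had control only and 8 had neither. Of protein-coding symbols in the reference, 3.07% were activator only, 23% had both and 51.9% had control only. CISH and SOCS1 to SOCS3, the feedback inhibitors that STAT5 classically induces, had control intervals only. CISH had control STAT5 intervals of 0 and 2 and of 2 and 0, SOCS1 had one of 0 and 2, and SOCS2 had 2 intervals of 2 and 0. SOCS3 had a control interval of 2 and 2, found in both libraries, 1509 to 840 bp upstream, beside 2 others found in 1 library each. PIM1, a survival kinase, had one of 5 and 0, and CCND1, which codes for cyclin D1, had 3 intervals of which the highest was 4 and 0. Of these, only the SOCS3 interval of 2 and 2 would have entered a list that requires both libraries.

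The regulators of signalling that were activator only included a phosphatase, exchange factors and kinases. Activator-only shares lay around the 3.07% of all protein-coding symbols. They were 2.22% for the JAK-STAT list, 4.17% each for RAC1 and PAK and for RAS, MAPK and PI3K signalling, and 2.82% for the WNT list. PTPN2, a phosphatase that removes phosphate from JAKs and STATs, had 2 and 6 from 728 to 432 bp upstream. It was the 1 activator-only gene among 45 of the JAK-STAT list, of which 7 (15.6%) had both, beside 23% of all protein-coding symbols. ARHGEF7 and ARHGEF6, exchange factors for RAC1 and CDC42 that bind PAK kinases, were the 2 activator-only genes among 48 of RAC1 and PAK signalling. ARHGEF7 had 3 and 3 at 2992 to 2685 bp upstream, whereas ARHGEF6, on chromosome X, had 2 and 2. In the list of RAS, MAPK and PI3K signalling, 2 of 48 genes were activator only. MAP2K4, a kinase that activates JNK, had 4 and 2 on a control BCL6 peak, and ARAF, a RAF kinase on chromosome X, had 2 and 3. WNT9A, a ligand, and AXIN2, an inhibitor of the pathway and one of its target genes, had 2 and 2 each and were the 2 activator-only genes among 71 of the WNT list. The nearest control STAT5 peak to AXIN2 was 423885 bp away, and a control BCL6 peak lay 8 bp from its interval.

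Genes of the DNA damage response were activator only in 6 of 140 cases (4.29%), beside 3.07% of all protein-coding symbols, and 47 (33.6%) had both, beside 23%. Over all 833 list genes pooled, which include these, the shares were 3.24% and 29.05%, so the pooled list genes had both more often than all symbols. Single lists lay on either side of the 23%. Among single lists the share with both ran from 11.1% for mismatch repair and end joining to 46.2% for base and single-strand break repair. MDM2, the ubiquitin ligase that targets p53, had 2 and 5 at 1764 to 1654 bp upstream and was the 1 activator-only gene among 37 of damage signalling. Nucleotide excision repair had 3 of 24 genes (12.5%), a share that rests on few genes. GTF2H3, a subunit of the repair and transcription factor TFIIH, had 2 and 8 at 303 to 553 bp downstream. UVSSA, which recruits TFIIH to stalled polymerase, had 2 and 4 in an interval of 26 bp, and ERCC8, a component of the ubiquitin ligase that recognises it, had 2 and 2 on a control BCL6 peak. XRCC5, the larger subunit of the Ku end-binding complex, had 2 and 5 in an interval of 51 bp and was the 1 activator-only gene among 18 of mismatch repair and end joining. FEN1, the flap endonuclease of long-patch base excision repair and replication, had 2 intervals of 2 and 2. Of 35 genes of homologous recombination and the Fanconi pathway, 0 were activator only and 14 (40%) had both. None of these 6 genes had 3 or more in both libraries.

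Among list members, BAX had the highest smaller value of the 2 libraries after BCL6. BAX, which forms pores in the outer mitochondrial membrane, had 5 and 4 from 49457693 to 49458019 on chromosome 19, 425 to 99 bp upstream, and the nearest control STAT5 peak was 9341 bp away. The other activator-only gene among 42 of apoptosis was BCL2A1, an inhibitor of cell death, with 2 and 2 on a control BCL6 peak. E2F2, a transcription factor of S phase genes, had 2 and 2, and TFDP1, the partner with which E2F proteins bind DNA, had 3 and 2. They were the 2 activator-only genes among 50 of the cell cycle, and both intervals lay on control BCL6 peaks. The activator-only share was 4.76% for apoptosis and 4% for the cell cycle, beside 3.07% of all protein-coding symbols.

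The remaining list members were spread over general cell machinery. The proteasome had 3 of 36 (8.33%), beside 3.07% of all protein-coding symbols. These were PSMB7, a catalytic subunit (2 and 3), PSMC2, an ATPase of the regulatory particle (2 and 5), and ADRM1, a ubiquitin receptor. ADRM1 had 5 intervals, all of 2 and 2. MED28 of the Mediator complex had 3 and 7 at 387 to 572 bp downstream. PRPF31, a splicing factor of the tri-snRNP, had 2 and 5 in an interval across its start that overlapped a control BCL6 peak of 0 and 5. PCGF6, a Polycomb protein, and COX6B1, a subunit of cytochrome c oxidase, had 3 and 2 each. VIL1, which codes for villin of the intestinal brush border, had 2 and 2 across its start. It was the 1 activator-only gene among 33 of the colon epithelium (3.03%), of which 9 (27.3%) had both, beside 23% of all protein-coding symbols. Of the marker lists, 0 of 14 fibroblast and endothelial markers and 0 of 19 housekeeping genes were activator only. ChIP intervals do not measure expression, so these markers are counts only.

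Over the 21 lists, 27 of 833 genes were activator only (3.24%), beside 3.07% of all protein-coding symbols. The numbers per list were 0 in 3 lists, 1 in 11, 2 in 5 and 3 in 2. With at least 3 required in both activator libraries, 4 of the 27 were left: BCL6, BAX, MED28 and ARHGEF7.

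**Figure D1:**
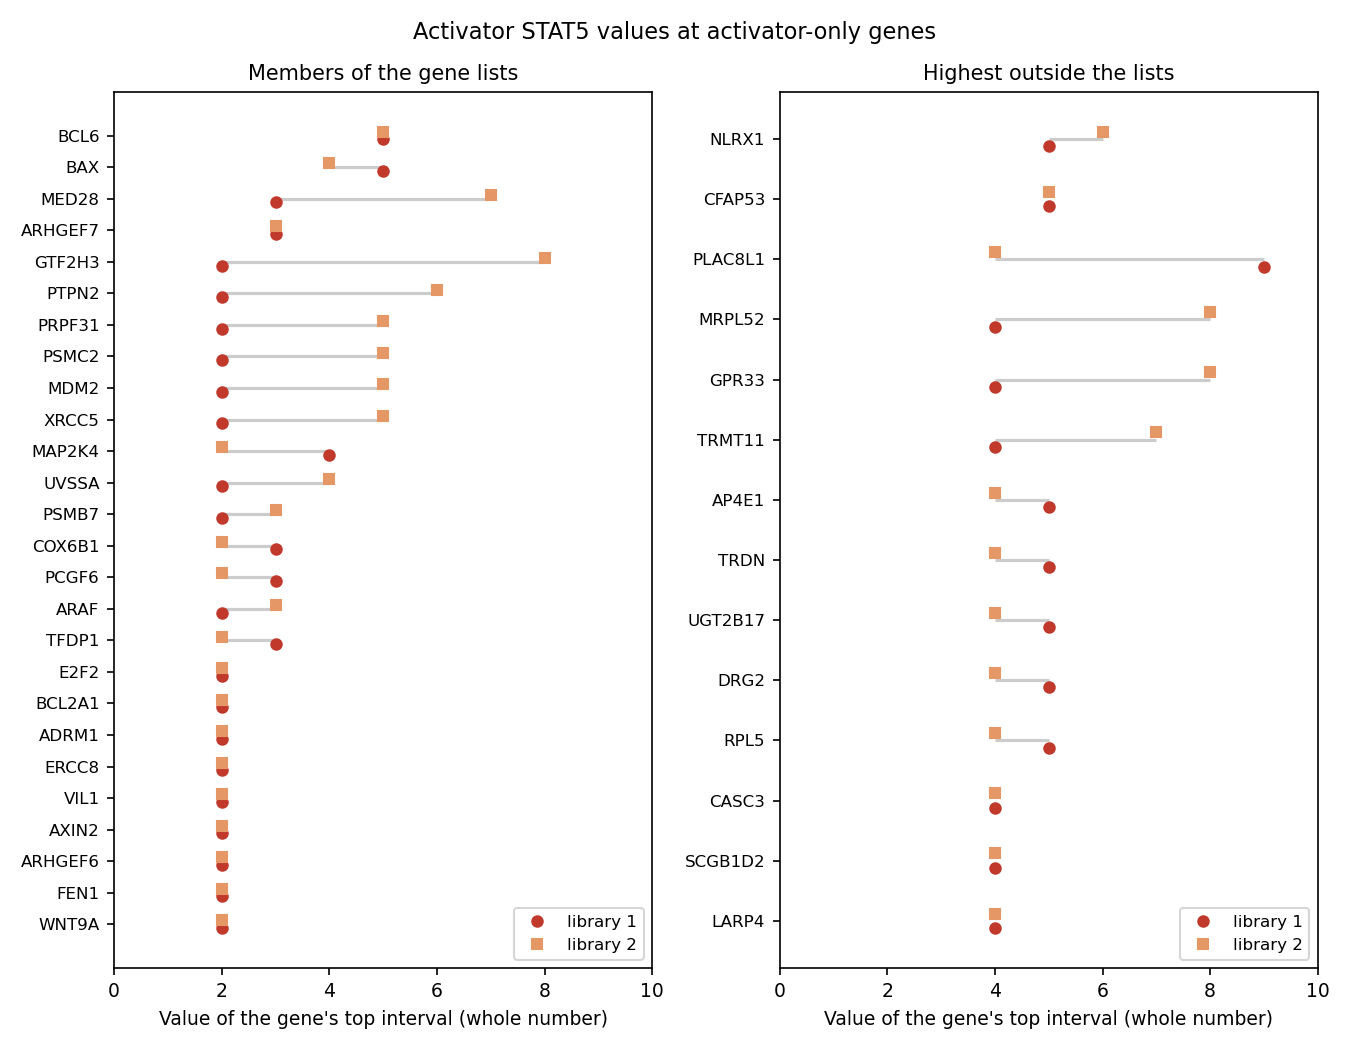
Values of the activator STAT5 interval with the highest smaller value at each gene, in library 1 (circles) and library 2 (squares), for 26 of the 27 list members (left) and 14 of the 15 highest genes outside the lists (right), with a line joining the libraries. The horizontal axis is the deposited whole number. BCL6 and BAX are the list members with at least 4 in both libraries, and most others have 2 in at least 1.

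Outside the lists, 15 protein-coding genes were taken by the smaller of their values. NLRX1, a mitochondrial protein of innate immune signalling, had 5 and 6 at 647 to 879 bp downstream (119037925 to 119038157 on chromosome 11). CFAP53, a protein of motile cilia, had 5 and 5 at 2350 to 1972 bp upstream and a second interval of 3 and 2 at 255 to 24 bp upstream, and no control interval of either antibody. PLAC8L1 had 9 and 4 at 1728 to 1280 bp upstream. MRPL52, a protein of the large mitochondrial ribosomal subunit, had 4 and 8, and a control STAT5 peak lay 822 bp away, beyond its window. GPR33, an orphan receptor, also had 4 and 8, at 2020 to 1833 bp upstream.

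Further down, TRMT11, a subunit of a tRNA methyltransferase, had 4 and 7 on a control BCL6 peak of 2 and 0. AP4E1, a subunit of the AP-4 adaptor of vesicle transport, had 5 and 4 from 338 to 15 bp upstream. The same values were found at TRDN, which codes for triadin of muscle, UGT2B17, a steroid glucuronosyltransferase, DRG2, a GTP-binding protein, and RPL5 of the large ribosomal subunit. SCGB1D2, CASC3 of the exon junction complex and LARP4, an RNA-binding protein, had 4 and 4. In all 15, the libraries both had at least 4, and with intervals of at least 50 bp, 20 of the 616 protein-coding genes reached 4 in both and 93 reached 3. At any width, the highest smaller value at a protein-coding gene of the class was 7.

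Most activator-only genes had a single interval: 1341 of 1636 (82.0%) had 1, 248 had 2, 39 had 3 and 8 had more, up to 5. Among protein-coding genes, 14 had at least 3 intervals of 50 bp or more. PLAC8L1 had 4, which lay within 1728 bp upstream and had 9 and 4, 2 and 4, 2 and 3, and 3 and 3. SKP1, the adaptor of SCF ubiquitin ligases, had 2 and 8, 2 and 4, and 3 and 3, and no control interval of either antibody. YEATS4, a reader of acetylated histones, had 2 and 8, 3 and 4, and 2 and 2. L3MBTL1, a reader of methylated histones, had 2 and 5 and a pair of intervals of 5 and 2. DOCK4, an exchange factor for RAC that was not among the list genes, had 2 and 3 in an interval across its start, 2 and 4, and 3 and 2, with a control STAT5 peak of 2 and 0 lying 721 bp from one of them. That peak reached into the window of DOCK4 but was assigned to another gene, and with such peaks counted DOCK4 was not activator only. LARP1, RSL1D1, TPM3, FAM107A and NANP also had 3, with values from 2 to 4. Neighbouring intervals can be pieces of one peak, so their number is not a number of binding events.

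An activator interval crossed the gene start at 16 activator-only protein-coding genes. NUAK2, a kinase related to AMPK, had 2 and 10 there, ATAD3C had 8 and 2, BCKDK, the kinase of branched-chain ketoacid dehydrogenase, had 5 and 2, and KCTD4 had 3 and 4. In the first 3 of these the value was high in 1 library and the lowest possible in the other.

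The 2 activator libraries hardly ranked the intervals alike in either class. Over the 1852 distinct intervals at activator-only genes, Spearman's rho between the libraries was 0.03, and over the 12350 at genes with both it was 0.03 as well. Pearson's r of the log2 values, which is not a measure of rank, was 0.32 at activator-only genes and 0.05 at genes with both. The highest values in the first and second library were 104 and 182 at activator-only genes and 39 and 50 at genes with both. What part such high values have in r was not tested. Intervals enter only with at least 2 in both libraries and most values are 2 or 3, which leaves little range for a correlation.

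Next, intervals at activator-only genes were set beside those at genes with both, using values, width and position, which the rule did not use. Medians were 2 in each library in both classes. At activator-only genes, 13.8% of 1987 interval-gene pairs had at least 3 in both libraries (exact 95% interval 12.4 to 15.4), and at genes with both 17.5% of 13950 (16.9 to 18.1). The lowest pair of values, 2 and 2, made up 39.6% and 34.3%. Of the distinct intervals at activator-only genes, 155 were also assigned to a gene with both. Intervals are not replicates, and these intervals of shares cover counting error only, so no test between the classes was made.

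Widths differed in the other direction. The median was 167 bp (95% interval 160 to 175) at activator-only genes and 138 bp (136 to 141) at genes with both. Among intervals over 1000 bp from any control STAT5 peak the medians were 167 and 154 bp (148 to 159), so a smaller difference was left where no control peak lay close. Intervals under 50 bp made up 13.5% and 19.4%.

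Position along the gene was alike in both classes. Intervals lay wholly upstream of the start in 74.7% and 74.3% of pairs, crossed it in 3.27% and 3.37%, and lay wholly on the gene's side in 22.0% and 22.4%. The median midpoint was 1036 bp upstream of the start at activator-only genes and 1018 bp at genes with both. Pairs per 250 bp ranged from 4.93% to 6.90% between 3000 bp upstream and 1000 bp downstream at activator-only genes, with no peak at the start.

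**Figure D2:**
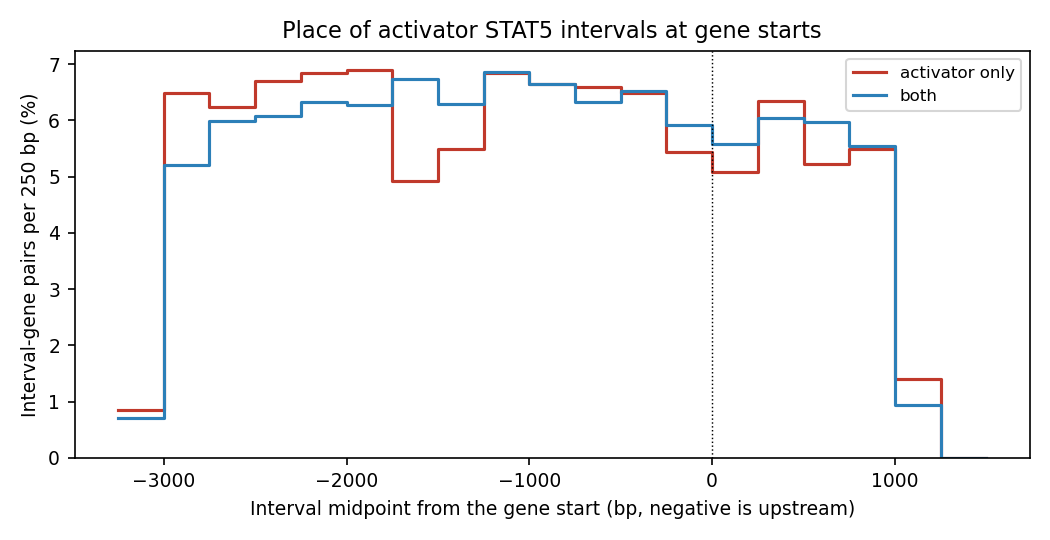
Share of interval-gene pairs (vertical axis, percent per 250 bp) by the distance of the interval's midpoint from the gene start (horizontal axis, bp, negative is upstream) at activator-only genes and genes with both. Both lines run level across the window, and 5.43% and 5.08% of activator-only pairs fall in the 250 bp on either side of the start.

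The distance to the nearest control STAT5 peak of any gene was fixed in part by the rule and is given as a description. Its median was 15457 bp for activator-only pairs (quartiles 5158 and 40286) and 345 bp at genes with both (29 and 907). A control peak assigned to a neighbouring gene came within 1000 bp of 67 activator-only pairs (3.37%) and touched 7. At 44 activator-only genes (2.69%), a control peak assigned elsewhere reached into the window. The median distance to the nearest control BCL6 peak, which the rule did not use, was 577 bp at activator-only genes and 359 bp at genes with both.

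**Figure D3:**
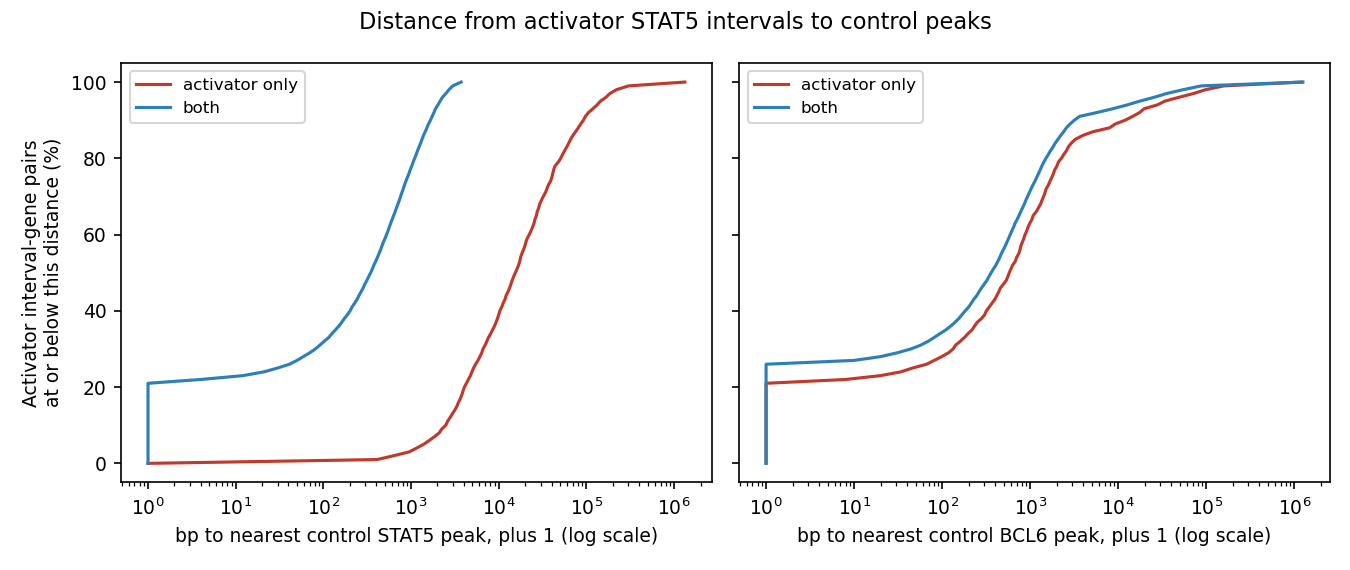
Cumulative share of activator STAT5 interval-gene pairs (vertical axis, percent) by distance to the nearest control STAT5 peak (left) and control BCL6 peak (right), on a log axis of bp plus 1, for both classes. The lines lie far apart for STAT5, with medians of 15457 and 345 bp, and close together for BCL6, with 577 and 359 bp.

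BCL6 in control cells was the main readout that the rule did not use. It was not independent of the rule, since both control lists come from empty-vector cells and admit intervals of 1 library. A control BCL6 interval was listed at 1348 activator-only genes, or 82.4% (80.5 to 84.2), at 88.3% of genes with both (87.7 to 88.9), at 82.8% of genes with control STAT5 only (82.3 to 83.3) and at 85.8% of all genes in the lists, which include genes listed for BCL6 alone. These intervals cover counting error only, and the difference between classes was not tested. Among protein-coding symbols the share was 82.95% at activator-only genes, 87.93% at genes with both and 83.58% at genes with control STAT5 only. Over the whole reference, which also counts symbols found in no list, it was 73.9%. Counting only BCL6 intervals with a value in both libraries, the shares were 12.5%, 18.5% and 13.7%. Of activator-only pairs, 20.9% (19.2 to 22.8) overlapped a control BCL6 peak, and of pairs at genes with both 26.2% (25.5 to 26.9). Those overlaps were found at 390 activator-only genes, 155 of them protein-coding. The control BCL6 list has the same loose entry rule as the control STAT5 list, and a peak there is mostly of 1 library.

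Among list members, activator intervals lay on control BCL6 peaks at FEN1, ERCC8, E2F2, TFDP1, MAP2K4, BCL2A1, COX6B1, PSMC2, ADRM1 and PRPF31. The peak at ERCC8 had 3 and 2 in the control BCL6 libraries that at BCL2A1 2 and 5 and that at ADRM1 6 and 2, so these were held by both. At FEN1 and E2F2 it had 0 and 2, and at PSMC2 2 and 0. BAX had 4 control BCL6 intervals in its window, each held by 1 library, and its activator interval overlapped none.

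Neither control antibody gave an interval at 288 activator-only genes, 105 of them protein-coding. CFAP53 had the highest smaller value among the protein-coding ones. NOX4, an NADPH oxidase, had 8 and 3, and CSK, the kinase that restrains SRC, 3 and 4. KCTD4 had 3 and 4 across its start with the nearest control STAT5 and BCL6 peaks 78013 and 78112 bp away. SGO2, a protector of centromeric cohesion, had 3 and 7 and also an inhibitor BCL6 interval of 3, 2 and 7 at another position.

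BCL6 in cells given the activator plasmid with the RAC inhibitor was listed at few genes of any class. It was found at 55 activator-only genes, or 3.36% (2.54 to 4.35), at 5.30% of genes with both (4.89 to 5.73), at 3.47% with control STAT5 only and at 3.83% of all genes in the lists. Of 61 inhibitor intervals at activator-only genes, 13 shared at least 1 bp with an activator STAT5 interval. Protein-coding genes accounted for 18 of the 55, and 3.3% of all protein-coding symbols had an inhibitor BCL6 interval. A shared bp was found at L3MBTL1, PDE11A, PRR15, STX6 and TAX1BP3. At TAX1BP3 the inhibitor BCL6 values were 4, 2 and 7. NBPF1, of a repeated gene family in which reads of near-identical copies cannot be assigned with certainty, had the highest, 11, 3 and 29, in an interval that shared no base with an activator interval.

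**Figure D4:**
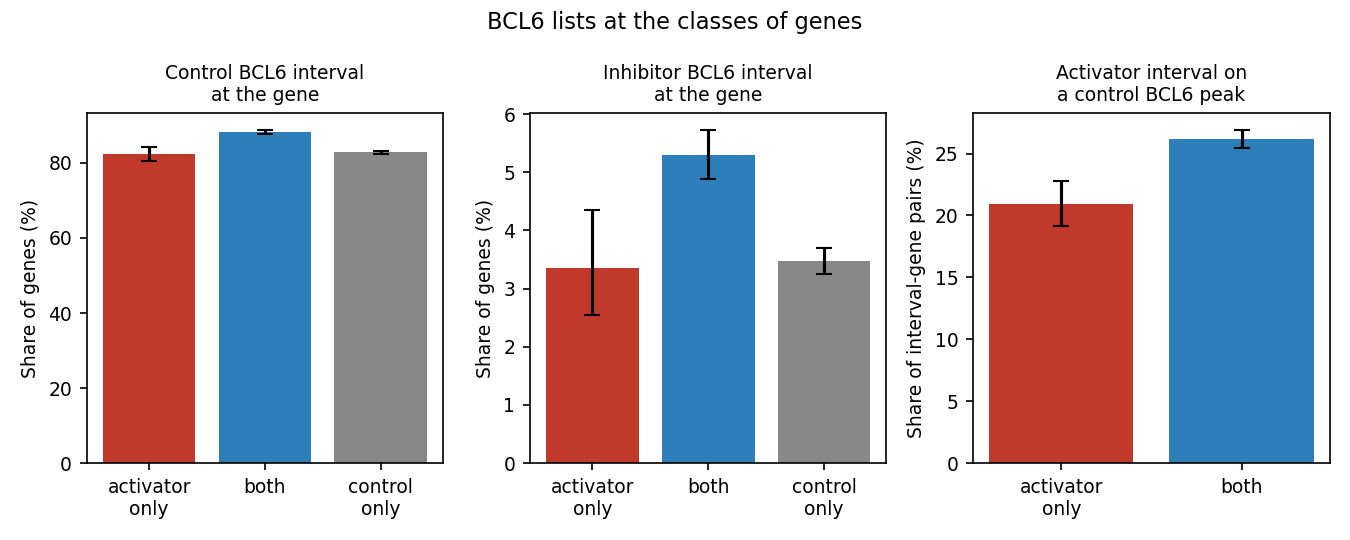
Share of genes with a control BCL6 interval (left) or an inhibitor BCL6 interval (middle), and share of activator interval-gene pairs that overlap a control BCL6 peak (right), in percent, with exact 95% intervals as bars. Activator-only genes stand at 82.4%, 3.36% and 20.9%, below genes with both in each panel.

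The 2 STAT5 lists were not independent across genes. Of protein-coding genes with an activator interval, 88.2% (87.3 to 89.1) also had a control STAT5 interval, and of those without one 70.2% (69.5 to 71.0), beside 74.9% of all protein-coding symbols. Gene types were similar among classes: protein-coding symbols made up 37.7% of activator-only genes, 41.9% of genes with both and 38.6% with control only, and pseudogenes 14.9%, 11.6% and 13.2%. Genes with no symbol matched to the reference made up 39.9% of activator-only genes, and 72 activator-only genes were of long noncoding RNAs.

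Chromosome X stood apart in how activator genes were divided. Of 103 activator genes on X, 57 were activator only, or 55.3% (45.2 to 65.1). On the autosomes the share was 12.6% (1575 of 12533, 11.99 to 13.16), and single autosomes ranged from 7.51% for chromosome 8 to 22.4% for chromosome 21. The control and activator lists were all thinner on X. Control STAT5 intervals were found at 35.4% of its protein-coding genes and at 76.9% of autosomal ones, control BCL6 intervals at 34.0% and 75.9%, and activator STAT5 intervals at 3.89% and 27.1%. On chromosome Y, which is not plotted, 4 of 7 activator genes were activator only (57.1%, 18.4 to 90.1), too few for a comparison. Of 33 protein-coding activator genes on X, 21 were activator only. Besides ARAF and ARHGEF6 they included MAOA, a monoamine oxidase, NOX1, the NADPH oxidase of colon epithelium, and CSTF2, a cleavage stimulation factor. MAOA and NOX1 had 2 and 2, CSTF2 had 3 and 2, and none of the 21 had 3 in both libraries. What part the lower density of control peaks on X has in this share was not tested.

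**Figure D5:**
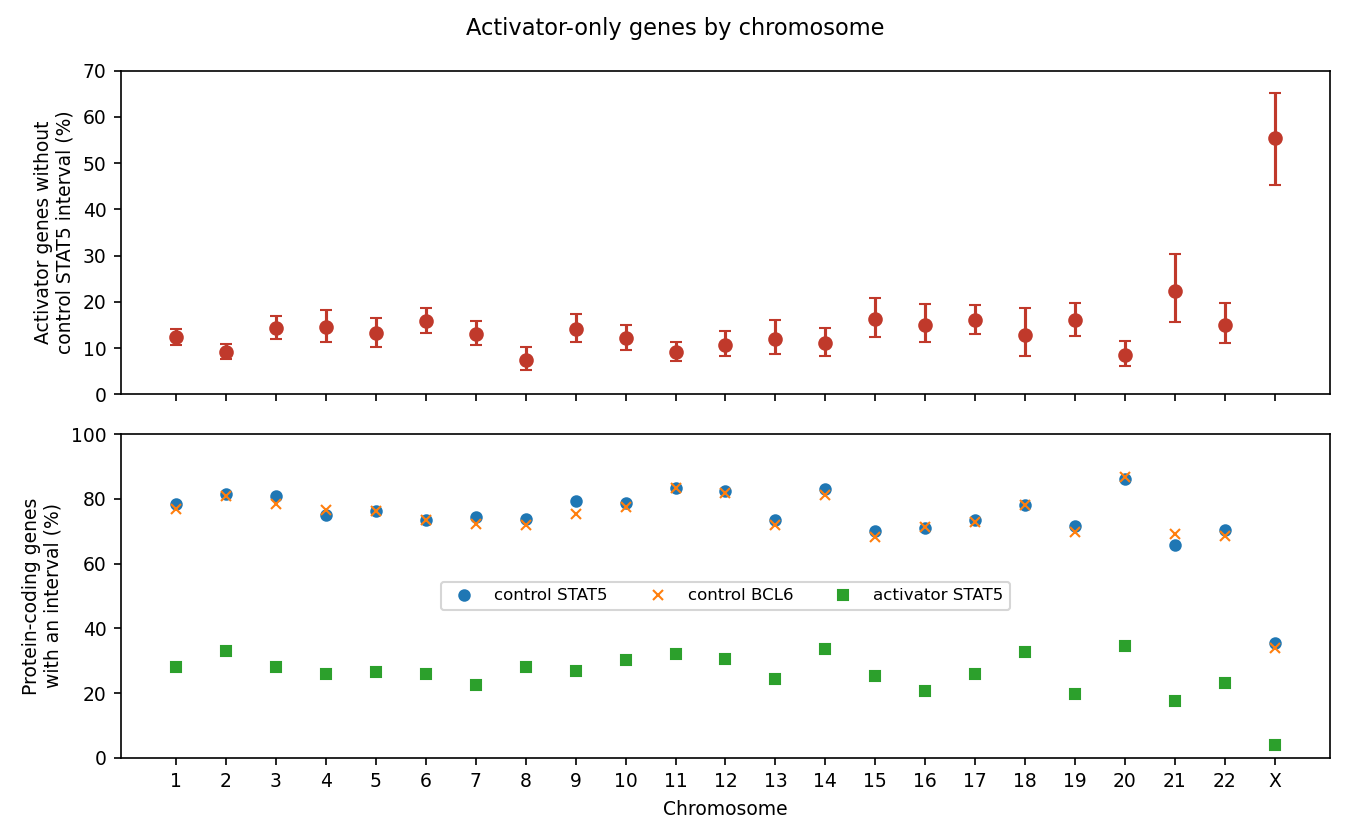
Top, share of activator STAT5 genes without a control STAT5 interval on each autosome and on X, in percent with exact 95% intervals. Bottom, share of each chromosome's protein-coding genes with a control STAT5, control BCL6 or activator STAT5 interval. Among the autosomes and X, chromosome X is highest in the top panel, at 55.3%, and lowest for all 3 lists in the bottom panel.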

How the data were processed

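ChIP-seq of STAT5 and BCL6 was analysed from 4 interval lists covering 9 of the series' 14 libraries; the other 5 libraries and 2 lists that combine conditions were not analysed here. The submitters' processing notes name CASAVA 1.8.2, Bowtie 0.12.7 and the build GRCh37. For peak calling, tool and threshold were not given in the sources used here. As files, the authors deposited 1 whole-number count per interval and library, with interval width and distance to an Ensembl gene's start in bp. The quantity of the counts is not named in the file headers. The authors measured the distance from the interval's low coordinate on either strand, so positions here were recomputed with strand. Library depth is not given; values summed over intervals were 81105 and 100945 in control STAT5 and 37629 and 44216 in activator STAT5, which is no depth, since pieces of a peak can repeat its value.

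Genes were classed by Ensembl identifier. Overlap meant at least 1 shared bp, and a peak of any gene counted. Intervals of shares are exact (Clopper-Pearson, 95%) and reflect counting error alone; no test was run, because the lists hold called intervals and not values at fixed sites. RefSeq tables (GRCh38.p14) gave names, gene types, promoters and miRNAs; 26170 of 26337 genes with a symbol matched, 24808 directly, and 20052 symbols were protein-coding. Named genes were the activator-only members of 21 lists, the 15 highest other protein-coding genes by the smaller value of intervals of at least 50 bp, and the 10 with most such intervals. Genes named beyond these, at gene starts, on X, among miRNAs or beside BCL6 lists, were chosen with their values in view. A few named genes are not reported here. The members, lists and rules were chosen with earlier results of these data known. Classing, distances and overlaps were tested on simulated intervals. Python 3.11.15, pandas 2.3.3, numpy 2.4.6, scipy 1.17.1 and matplotlib 3.10.9 were used. Alternatives changed the control entry rule, the library set, the value, width, window, gene type and overlap; 2, a control peak of any gene reaching the window and autosomes alone, were added after seeing the data.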

Additional observations from a re-analysis of the deposited data

How the results depend on the processing

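The class depends on how a control interval is admitted. With a value required in both control libraries it held 10429 genes, 82.5% of activator genes; 86.9% of them had a control BCL6 interval, 24.7% of pairs overlapped a control BCL6 peak, 16.2% had at least 3 in both libraries, and the median width was 143 bp. With at least 3 in 1 control library it held 7116 genes (56.3%), with 85.7% at control BCL6 intervals, 24.0% overlapping BCL6 peaks and a width of 149 bp. Leaving out the first and the second control library gave, in that order, 3809 and 4782 genes, 30.1% and 37.8%, with 85.1% and 85.5% at BCL6 intervals, 23.65% and 23.6% overlapping BCL6 peaks, 15.3% and 15.5% with at least 3 in both, and widths of 154 and 153 bp. With at least 3 in both activator libraries, 255 genes (10.2%) were left, with 22.9% overlapping BCL6 peaks and a width of 198 bp. Intervals of at least 50 bp had a median width of 189 bp. With every list kept to 1000 bp around the start, 34.1% of activator genes were activator only. Of these activator-only genes, 61.0% had a control BCL6 interval, and 23.6% of their pairs overlapped a BCL6 peak. In that class were 15 of the 27 list members. That setting used the deposited distance, taken from the interval's low coordinate, and not the positions recomputed with strand. Protein-coding symbols gave 616 genes and 11.8%. Counting only activator intervals at least 1000 bp from control STAT5 peaks gave 35.9%, and requiring that most of an interval, at least 50%, lie on a BCL6 peak gave 14.9%. Autosomes alone, or a control peak of any gene reaching the window, gave 1575 and 1592 genes and moved no result past its limits. In all, 32 of 66 values stayed within their counting interval, or for gene counts within 1.5 times. Leaving out an activator library was not run, since its list holds only intervals of both. No paired analysis was possible because the libraries of the groups compared share no replicate number in the labels and no test was run. Depth is unknown, and values of 2 and 3 limit what any single interval can show.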

Other observations

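The highest activator-only values lay outside protein-coding genes. In 12 interval-gene pairs both activator libraries had at least 10, and 0 of these were at a protein-coding symbol. At ENSG00000236623, which has no symbol matched to the reference, 4 pieces of 51 to 165 bp on chromosome 10 had between 30 and 104 in the first library and 84 and 182 in the second. At ENSG00000222855, on chromosome 21, pieces of 8 and 25 bp had 100 and 131 and 45 and 53, and the nearest control STAT5 peak lay 958890 bp from the first. RNA5-8SP2, a ribosomal RNA pseudogene on chromosome 16, had 10 and 10 in 30 bp. Whether reads can be assigned with certainty at these places was not tested, so these values are not read as binding.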
